A study of Mus musculus with 6 samples.

Results

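The fatty acid elongases and desaturases are the enzymes that lengthen fatty acids made in the cell or taken from the diet and put double bonds into them. The group described here holds 10 genes, chosen by symbol: Elovl1, Elovl3, Elovl4, Elovl5, Elovl6 and Elovl7, the stearoyl-CoA desaturases Scd1 and Scd2, and the front-end desaturases Fads1 and Fads2. All 10 were found among the 29072 genes of the deposited table. RNA came from brown adipose tissue of the interscapular depot, a fat that makes heat, of 3 UCP1(-/-) samples (knockout) and 3 wildtype samples, both on the C57BL/6J strain. The labels give no age, sex, housing temperature or diet, do not say which part of Ucp1 is missing, and do not say that the replicates are separate animals, so a p-value here weighs a difference only against the spread among these libraries, which may be technical.

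Elongation adds a carbon pair at a time in a cycle of condensation, reduction, dehydration and a second reduction at the endoplasmic reticulum, and the ELOVL proteins carry out the condensation that sets which chain is lengthened. ELOVL6 takes palmitate and palmitoleate, ELOVL3 and ELOVL1 make saturated and monounsaturated very long chains, ELOVL5 acts on polyunsaturated chains, and ELOVL4 makes the longest ones. SCD1 and SCD2 place the first double bond in stearate and palmitate, whereas FADS1 and FADS2 desaturate essential fatty acids on the way to arachidonate and docosahexaenoate. Brown fat is known for its high Elovl3, which cold exposure and adrenergic signals induce, and for active fatty acid synthesis.

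Levels are RPKM as the authors deposited them, that is, reads scaled by transcript length and library depth, and can be compared between genes. Means are given ± SD over 3 libraries of a group. The steps between low values implied about 15782000 to 18031500 reads per library. Ucp1, which marks the genotype, averaged 379 ± 8.83 RPKM (knockout) against 2653 ± 814 RPKM (wildtype, n = 3 each), 7.01-fold lower in knockout (limma adjusted p = 0.000404). Its levels were 375.5, 388.5 and 372 RPKM in knockout replicates 1, 2 and 3, and 3096, 1714 and 3151 RPKM in wildtype replicates 1, 2 and 3, so wildtype replicate 2 held the least of the wildtype libraries. Brown adipocyte markers were abundant in every library, with a summed level of 4409 to 4563 RPKM over 9 genes in knockout and 4061 to 4844 RPKM in wildtype samples, most of it from Cox8b, Cidea and Cox7a1. Of the 9, Prdm16 was called lower, at a mean of 3.24 RPKM (knockout) against 4.98 RPKM (wildtype) without overlap (limma adjusted p = 0.0382), and 8 did not pass. Skeletal muscle markers moved with genotype: all 15 were higher in every knockout library than in any wildtype library, as were 24.2% of all tested genes. Their sums were 1701 to 1911 RPKM against 57.3 to 279 RPKM. White adipocyte markers summed to 135 to 204 RPKM in knockout and 79.4 to 115 RPKM in wildtype samples. Their median log2 change was 0.81 over 4 tested genes, of which 1 was called higher, against 6.95% of all tested genes. The called gene was Hoxc8, at a mean of 3.13 RPKM (knockout) against 1.41 RPKM (wildtype, limma adjusted p = 0.00576). Lep, Retn and Nnmt overlapped between the groups and did not pass. Macrophage markers summed to 72.3 to 98.7 RPKM in knockout and 44.4 to 70.7 RPKM in wildtype samples. Of these 8 markers 1 was called higher, where 6.95% of all tested genes were called higher and 0.718% lower. The part of these markers in the results below, those on Elovl3, Elovl6 and fatty acid synthesis included, was not tested. In bulk tissue, fewer cells of a type and less RNA per cell cannot be told apart.

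The coding sequences show what the rule by symbol did not use. Each of the 6 elongases held exactly 1 histidine box of the form HXXHH, a motif of the family. The stretches below, 5′ to 3′ on the coding strand, come from the GENCODE mouse transcripts that match the RefSeq rows used. Capitals mark the 5 codons of the box, and they are shown because Elovl3 and Elovl6, whose transcripts moved in opposite directions, carry the same second codon, TGG, where Elovl1, Elovl5 and Elovl7 have GTC and Elovl4 has GTG.
Elovl6: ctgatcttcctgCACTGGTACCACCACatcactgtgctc
Elovl3: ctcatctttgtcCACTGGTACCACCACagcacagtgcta
Elovl5: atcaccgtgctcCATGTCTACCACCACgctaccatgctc
Elovl1: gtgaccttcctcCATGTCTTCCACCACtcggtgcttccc
Elovl4: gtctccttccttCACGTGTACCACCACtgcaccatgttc
Elovl7: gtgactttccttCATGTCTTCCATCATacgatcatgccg
The box of Elovl6 begins at codon 141 and that of Elovl3 at codon 146. The coding sequences of these 2 genes aligned with 58.6% identity, and the longest run they share is 16 bases, the box and the base after it. No stretch of 50 bases is common to their transcripts, so no read of that length from one matches the other in full.

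Elovl6 fell and Elovl3 rose in knockout brown fat, while the other tested elongases did not pass. By the RefSeq rows, Elovl6 was the most abundant elongase in every library. Elovl3 came next in each knockout library and Elovl5 in each wildtype library, and Elovl1 followed at a lower level. This order depended on the transcript row. With the row of the highest mean, Elovl3 lay above Elovl5 in wildtype replicate 2 (79.0 against 76.5 RPKM). The same held in wildtype replicate 3 (81.0 against 64.6 RPKM). Elovl3 then also lay above Elovl6 in knockout replicate 2 (170 against 167 RPKM). Of the 10 genes, 8 reached a group mean of 1 RPKM and were tested with limma on log2(RPKM + 1), adjusted by Benjamini-Hochberg over 11562 genes. Of those 8, 1 was higher and 1 lower at an adjusted p of 0.05, and 6 did not pass, against 6.95% of all tested genes called higher, 0.718% called lower and 7.67% called in either direction. The median log2 change of the 8 was -0.02, and that of all tested genes was 0.08. Over all genes 804 were called higher and 83 lower, or 495 and 146 after median-of-ratios scaling, which brought the median of all genes to -0.0058.

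**Figure D1:**
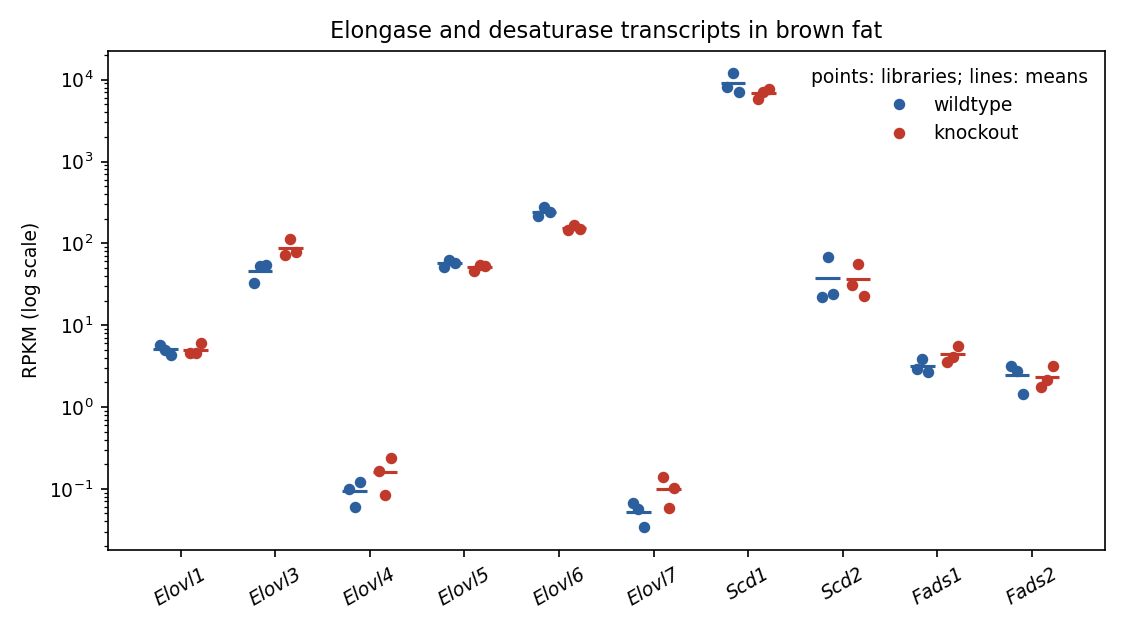
Levels of the 10 genes in each library, in RPKM on a log axis, with wildtype libraries in blue, knockout libraries in red and a line at each group mean (n = 3 each). Scd1 lies at 5873 RPKM or more in all libraries, Elovl4 and Elovl7 lie at 0.236 RPKM or less, and the groups of Elovl3 and Elovl6 are apart.

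Elovl6 (gene identifier 170439) stood at 144, 167 and 149.5 RPKM in knockout replicates 1, 2 and 3, and at 213, 279 and 240.1 RPKM in wildtype replicates 1, 2 and 3. All knockout libraries lay below all wildtype libraries, as happened for 5.11% of tested genes in this direction, and wildtype replicate 2 was the highest. The wildtype mean of 244 ± 32.9 RPKM compares with 154 ± 12.0 RPKM in knockout, so Elovl6 fell, with a log2 change of -0.66 (n = 3 each, SE 0.11, 95% interval -0.91 to -0.41, limma adjusted p = 0.00855). The table gives 4 transcript rows for Elovl6, and in each of them the groups did not overlap and the knockout mean was 0.629 to 0.635 times the wildtype mean. The call on Elovl6 held in all 16 alternatives, with log2 changes of -0.75 to -0.56 and adjusted p of 0.00562 to 0.0468.

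Elovl3 (gene identifier 12686) stood at 71.7, 114 and 79.0 RPKM in knockout replicates 1, 2 and 3, and at 32.8, 52.3 and 54.2 RPKM in wildtype replicates 1, 2 and 3. Every knockout library lay above every wildtype library, as happened for 24.2% of tested genes in this direction, with knockout replicate 2 highest and wildtype replicate 1 lowest. The mean rose 1.90-fold, to 88.2 ± 22.4 RPKM against 46.4 ± 11.8 RPKM, with a log2 change of 0.92 (n = 3 each, SE 0.22, 95% interval 0.42 to 1.41, limma adjusted p = 0.0403). All 3 transcript rows of Elovl3 showed the same order, with ratios of 1.88 to 1.90.

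The call on Elovl3 lies close to the threshold and was lost in 8 of 16 alternatives. Its limma adjusted p was 0.0608, 0.129 and 0.0830 without knockout replicates 1, 2 and 3, 0.0866 without wildtype replicate 1, 0.0712 after median-of-ratios scaling, 0.0554 after scaling to adipocyte markers, 0.0935 with no filter on low values and 0.0509 with a minimum mean of 5 RPKM. The log2 change stayed between 0.69 and 1.05 in all 16.

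Elovl5 and Elovl1 did not pass. Elovl5 (gene identifier 68801), which lengthens polyunsaturated chains, stood at 46.2, 55.0 and 52.9 RPKM in knockout against 51.9, 62.8 and 57.1 RPKM in wildtype libraries. These groups overlapped, and the log2 change was -0.15 (95% interval -0.38 to 0.07, limma adjusted p = 0.384). Of the 6 transcript rows of Elovl5, 4 had a lower and 2 a higher mean in knockout. Elovl1 (gene identifier 54325), which lengthens saturated chains for ceramides, held 4.37 to 6.03 RPKM over all 6 libraries, with means of 5.04 ± 0.863 (knockout) and 5.04 ± 0.698 RPKM (wildtype). The interval of its log2 change was -0.29 to 0.28 (limma adjusted p = 0.988). Of the 11 transcript rows of Elovl1, 7 had a higher and 4 a lower mean in knockout, and 1 lay higher without overlap.

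Elovl4, known mainly from retina, skin and brain, and Elovl7 were near the limit of detection. Elovl4 lay between 0.0605 and 0.236 RPKM and Elovl7 between 0.0339 and 0.138 RPKM. With GENCODE transcript lengths these values correspond to an estimated 2.95 to 12.8 and 2.21 to 8.85 reads per library. Neither reached the filter on low values, and a difference between the groups was not detectable at this depth. All 3 transcript rows of Elovl4 and all 6 of Elovl7 had a higher mean in knockout, with overlapping groups in each row. With no filter on low values both genes were tested, and neither passed. The summed level of 8 skin and sebaceous gland markers was 5.51 to 8.22 RPKM over the 6 libraries, with Krt5 and Dsg1a at 0 in all of them.

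**Figure D2:**
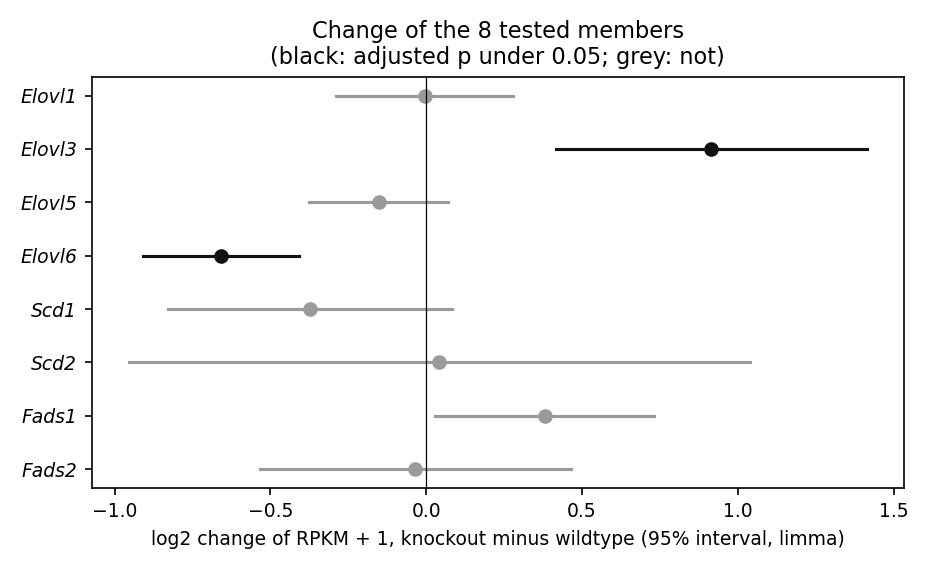
Log2 change of RPKM + 1, knockout minus wildtype, for the 8 tested genes, with 95% intervals from limma. The intervals of Elovl3 (0.42 to 1.41) and Elovl6 (-0.91 to -0.41) lie on opposite sides of 0, and those drawn in grey belong to genes that did not pass.

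Elovl6 held a smaller and Elovl3 a larger share of the elongase transcripts in every knockout library than in any wildtype library, though neither share passed. A share within a library does not depend on scaling between libraries. These shares come from the same values as the calls on Elovl6 and Elovl3, so they are not separate evidence. Elovl6 made up 54.1%, 49.1% and 51.9% of the summed RPKM of the 6 elongases in knockout replicates 1, 2 and 3, and 70.2%, 69.9% and 67.5% in wildtype replicates 1, 2 and 3. The mean share was 51.7 ± 2.49% against 69.2 ± 1.49% (n = 3 each), and the groups did not overlap. Elovl3 made up 26.8%, 33.4% and 27.4% in knockout and 10.8%, 13.1% and 15.2% in wildtype libraries, again without overlap. For both shares the two-sided exact permutation test gave p = 0.1, the smallest that 3 against 3 samples allow, and an adjusted p of 0.2 over the 4 shares tested.

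The same pattern can be read as a ratio. Elovl6 exceeded Elovl3 by 1.47 to 2.01 times in the knockout libraries and by 4.43 to 6.50 times in the wildtype libraries. The summed elongase level overlapped between the groups, at 267 to 341 RPKM in knockout and 304 to 399 RPKM in wildtype samples.

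**Figure D3:**
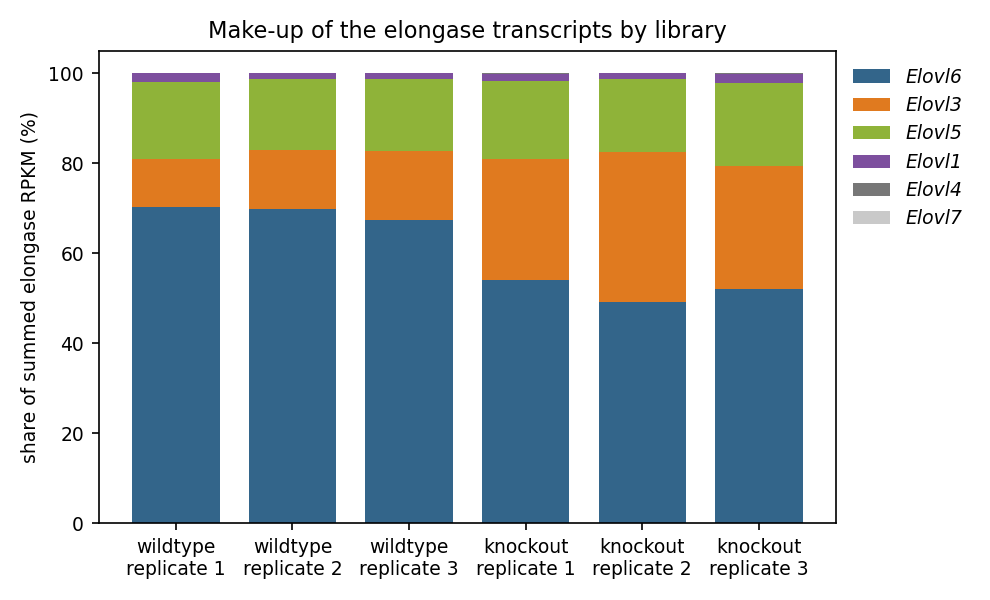
Share of each elongase in the summed elongase RPKM, in percent, for each of the 6 libraries. Elovl6 fills 67.5% to 70.2% of the wildtype bars and 49.1% to 54.1% of the knockout bars, and Elovl3 fills 10.8% to 15.2% and 26.8% to 33.4%.

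Scd1 was by far the most abundant of the 10 genes and overlapped between the groups. Scd1 (gene identifier 20249), which turns stearate into oleate, stood at 5873, 7008 and 7643 RPKM in knockout replicates 1, 2 and 3, and at 8207, 11935 and 6980 RPKM in wildtype replicates 1, 2 and 3. Wildtype replicate 2 stood apart from the other libraries, and wildtype replicate 3 lay within the knockout range. With the GENCODE transcript length, Scd1 took an estimated 2.84% to 5.77% of the reads of a library. The log2 change was -0.37 (SE 0.20, 95% interval -0.83 to 0.08, limma adjusted p = 0.297), and all 7 transcript rows had a lower mean in knockout, by ratios of 0.734 to 0.785. Scd1 did not pass in any of the 16 alternatives, and without wildtype replicate 2 the log2 change was -0.15.

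Scd2 varied more within each group than between them. Scd2 (gene identifier 20250), the related desaturase known from brain and from fat cell precursors, held 31.1, 55.3 and 22.5 RPKM in knockout and 22.0, 67.3 and 23.8 RPKM in wildtype libraries. In both groups replicate 2 was the highest. The log2 change was 0.04, or -0.05 after median-of-ratios scaling and -0.018 after adipocyte marker scaling, with a wide interval of -0.96 to 1.04 (limma adjusted p = 0.967). Of the 6 transcript rows of Scd2, 2 had a higher and 4 a lower mean in knockout. Scd1 made up 99.2% to 99.7% of the summed Scd1 and Scd2 RPKM in every library (exact permutation p = 0.6, adjusted p = 0.6, n = 3 each).

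Reads of Scd1 and Scd2 cannot all be told apart, which makes the low Scd2 value uncertain beside that of Scd1. Their coding sequences aligned with 89.8% identity. Of the words of 50 bases in the Scd2 coding sequence, 14.1% also occur in that of Scd1, and 2.68% of those in the whole Scd2 transcript occur in the Scd1 transcript. The longest identical run is 147 bases and begins at base 532 of the Scd2 coding sequence and at base 523 of that of Scd1. It is shown because a read from within it fits both genes equally well.
Scd1 and Scd2: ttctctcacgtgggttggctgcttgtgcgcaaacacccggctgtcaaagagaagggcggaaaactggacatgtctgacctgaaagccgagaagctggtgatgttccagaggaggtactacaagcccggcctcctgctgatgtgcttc
No source used here says how the authors assigned such reads. The level of Scd1 exceeded that of Scd2 by 127 to 373 times.

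The front-end desaturases were present at low levels and did not pass. Fads1 (gene identifier 76267), the delta-5 desaturase, stood at 3.57, 4.08 and 5.53 RPKM in knockout against 2.88, 3.86 and 2.65 RPKM in wildtype libraries, or 149 to 345 estimated reads. Only wildtype replicate 2 reached the knockout range. Its log2 change was 0.38 with an interval of 0.03 to 0.73, an unadjusted p of 0.0374 and a limma adjusted p = 0.182, and all 6 of its transcript rows had a higher mean in knockout. Fads2 (gene identifier 56473), the delta-6 desaturase that acts before it, stood at 1.74, 2.14 and 3.13 RPKM in knockout against 3.17, 2.78 and 1.43 RPKM in wildtype libraries. These values overlapped, with a log2 change of -0.04 (interval -0.53 to 0.46, limma adjusted p = 0.946). Of the 7 transcript rows of Fads2, 4 had a higher and 3 a lower mean in knockout. Fads2 made up 34.4 ± 1.69% of the summed Fads1 and Fads2 RPKM in knockout and 43.1 ± 8.72% in wildtype samples (n = 3 each, exact permutation p = 0.2, adjusted p = 0.267).

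Genes that work beside these enzymes formed 6 lists. Of their 46 tested genes, 3 were called, against 7.67% of all tested genes in either direction. Of 5 tested genes in the rest of the elongation cycle, none passed: the ketoacyl reductase Hsd17b12 averaged 163 ± 12.4 RPKM (knockout) against 167 ± 13.5 RPKM (wildtype), and the enoyl reductase Tecr 105 ± 7.55 against 129 ± 18.9 RPKM. The member with the smallest p was Hacd1, a dehydratase also abundant in muscle, at 6.47 ± 0.411 RPKM (knockout) against 4.71 ± 0.824 RPKM (wildtype). It did not pass (limma adjusted p = 0.0773, and 0.0486 without wildtype replicate 3), and the part of the muscle RNA given above was not tested. Of 3 tested relatives outside the group of 10, none passed, and the one with the smallest p was Fads3, at 6.77 ± 1.33 and 5.23 ± 1.97 RPKM (limma adjusted p = 0.348, and 0.0465 without wildtype replicate 2).

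Desaturation needs electrons from cytochrome b5 and its reductases. Of 5 tested genes of this list, 1 rose and 4 did not pass, against 6.95% of all tested genes called higher. Cyb5r1, a cytochrome b5 reductase, held 23.1, 24.8 and 21.7 RPKM in knockout and 13.1, 10.7 and 12.6 RPKM in wildtype libraries. The groups were far apart relative to their spread, with a log2 change of 0.89 (SE 0.09, limma adjusted p = 0.00104), and the call held in all 16 alternatives. Cyb5r3, the reductase best known for desaturation, averaged 53.2 ± 6.55 and 54.8 ± 11.9 RPKM and did not pass, nor did cytochrome b5 itself (Cyb5a), at 132 ± 4.09 and 129 ± 34.9 RPKM.

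Genes that make the substrates of elongation stood lower in knockout samples on average, but none of 11 tested genes of fatty acid synthesis passed. Their median log2 change was -0.40, and 10 of 11 had a value below 0. Acaca, the acetyl-CoA carboxylase that makes malonyl-CoA for synthesis and elongation, had the smallest p. It held 55.0, 67.9 and 59.4 RPKM in knockout and 77.0, 132 and 93.8 RPKM in wildtype libraries, with a log2 change of -0.69 and a limma adjusted p = 0.0523, and it passed in 6 of 16 alternatives. Fasn, the fatty acid synthase that supplies palmitate, stood at 949, 1385 and 885 RPKM in knockout against 1281, 2283 and 1501 RPKM in wildtype libraries.

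A single library weighed on this list. Wildtype replicate 2, where Ucp1 was lowest among wildtype samples, was the highest wildtype library for 10 of the 11 synthesis genes and for 5 of the 8 tested elongases and desaturases, and knockout replicate 2 was the highest knockout library for 9 of the 11 and 4 of the 8, with knockout replicate 3 highest for the other 4. Acly, for instance, which makes cytosolic acetyl-CoA, stood at 778 RPKM in wildtype replicate 2 and at 304 and 299 RPKM in the other wildtype libraries. The same library was also the highest wildtype library for 13 of 15 muscle, 6 of 6 fibroblast and 5 of 5 red cell markers. So it was for 6 of 8 macrophage and 3 of 4 tested white adipocyte markers. It was highest for 2 of 8 adipocyte, 1 of 9 brown adipocyte and 1 of 6 endothelial markers. Of the tested Schwann cell and skin markers, it was highest for 0 of 6 and 1 of 2. The part of these markers in this was not tested, and no such count was made over all genes. Without wildtype replicate 2 the median log2 change of the synthesis list was -0.06, and 7 of 11 values lay below 0, while Elovl6 still fell, by 0.56 on the log2 scale. Acaca passed as lower without this library (log2 change -0.48, limma adjusted p = 0.0475).

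**Figure D4:**
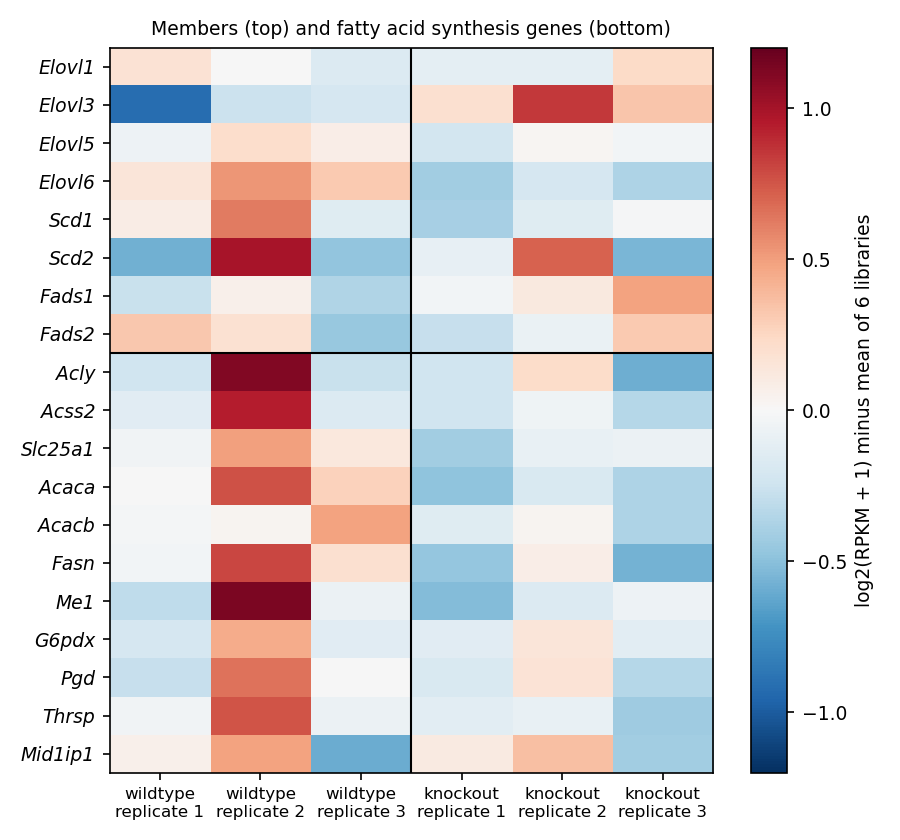
Log2(RPKM + 1) of the 8 tested elongases and desaturases (above the line) and the 11 fatty acid synthesis genes (below it) in each library, as the difference from the mean of the 6 libraries (colour, log2 units). Wildtype replicate 2 is the highest wildtype library in 10 of the 11 lower rows, and Elovl3 is the gene of the upper block with all wildtype libraries below all knockout libraries.

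Among 14 tested regulators of these genes, 1 rose and 13 did not pass, against 6.95% of all tested genes called higher. Ppara, the nuclear receptor that senses fatty acids, rose to 65.4 ± 10.1 RPKM against 43.5 ± 4.85 RPKM in wildtype, by 0.57 on the log2 scale (limma adjusted p = 0.0300). This call was lost in 5 of 16 alternatives. Among them were leaving out knockout replicate 1 (limma adjusted p = 0.101), knockout replicate 2 (0.105) or wildtype replicate 1 (0.0908). The others were median-of-ratios scaling (0.0684) and no filter on low values (0.0660). Srebf1, which encodes the sterol-regulated activator of lipogenic genes, averaged 58.3 ± 7.93 RPKM (knockout) against 68.5 ± 9.95 RPKM (wildtype) and did not pass. Of the 14, 3 stood higher in knockout without overlap and 2 lower, against 24.2% and 5.11% of all tested genes. The 2 lower ones were Mlxipl and its partner Mlx, which carry the glucose response. They stood at 73.4 ± 7.84 against 89.2 ± 2.58 RPKM and 17.8 ± 1.63 against 22.5 ± 1.58 RPKM. Neither passed (limma adjusted p = 0.102 and 0.0698). Both passed as lower after median-of-ratios scaling, and Mlx also after adipocyte marker scaling.

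Of 8 tested genes that activate fatty acids or pass them to ceramides and phospholipids, 1 fell and 7 did not pass. Of all tested genes, 0.718% were called lower. Acsl3, an acyl-CoA synthetase of the endoplasmic reticulum and lipid droplets, fell to 6.34 ± 0.938 RPKM against 9.54 ± 0.741 RPKM in wildtype, by 0.53 on the log2 scale (limma adjusted p = 0.0199). Its call was lost without knockout replicate 1 (adjusted p = 0.0820) and without knockout replicate 3 (0.0694). Acsl1, the main synthetase of fat cells, averaged 613 ± 46.0 RPKM (knockout) against 626 ± 43.9 RPKM (wildtype). Over all 46 tested genes of the 6 lists, 2 rose and 1 fell, beside the 6.95% and 0.718% given above for all genes.

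**Figure D5:**
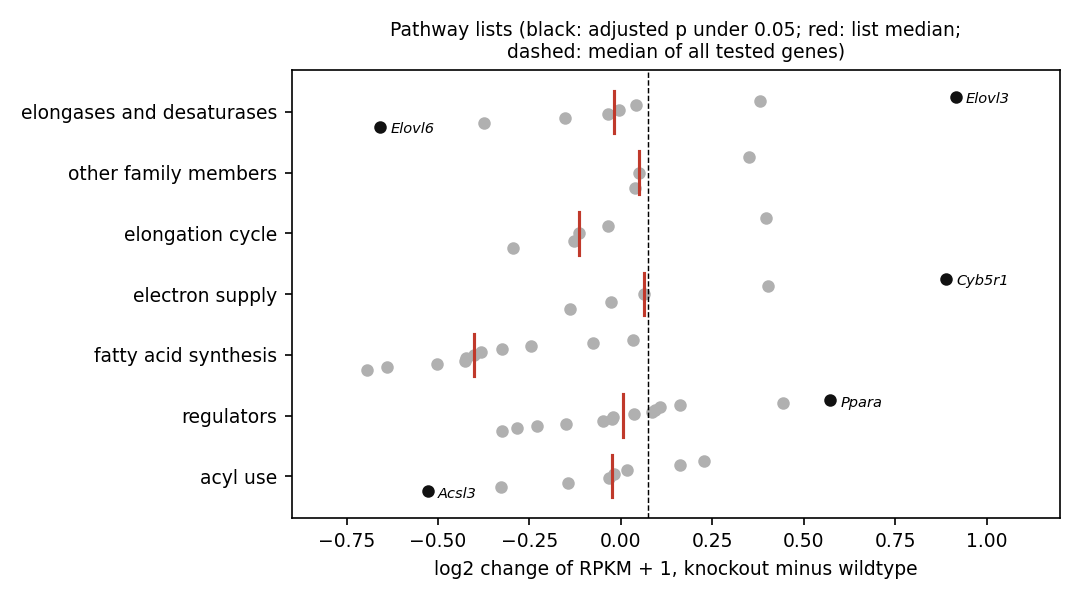
Log2 change of RPKM + 1, knockout minus wildtype, for each tested gene of the 7 lists, with called genes in black and named, list medians in red and the median of all tested genes (0.08) as a dashed line. The fatty acid synthesis list has its median at -0.40 with no called gene, and Elovl3 and Elovl6 lie at opposite ends of the top row.

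The genes whose levels ran most alike are given as a description only, since all points share the same 6 libraries and their 2 groups. Over the 6 libraries, the named genes of at least 5 RPKM whose log2 values were most like Elovl3 were Coro1b, Bcl2l2 and Rnf11 (Pearson r 0.995, 0.995 and 0.992), out of 6244 genes compared. Most like Elovl6 were Suox, Hist2h2be and Map3k15 (0.995, 0.991 and 0.989). When the group means were taken out, the 3 genes most like Elovl3 were Cand1, Tdrd3 and Coro1b (0.993, 0.989 and 0.989), those most like Elovl6 were Atg4b, Thtpa and Cyb5b (0.996, 0.992 and 0.989), and those most like Scd1 were Cd164, Fnta and Ccdc80 (each 0.994). Of the genes named before, Coro1b is the one that appears again.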

How the data were processed

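Total RNA was made into sequencing libraries with a TruSeq RNA kit, per the labels' protocols. CASAVA and bcl2fastq are named in the submitters' processing notes. The aligner, genome build, annotation and use of strand were not given in those sources. The authors deposited RPKM for 168326 transcript rows in 6 libraries, with decimal commas and no unit in the header. The unit was worked out from 46002 Ensembl rows: 95.8% to 96.1% of low products of value and GENCODE length were whole reads within 0.1. Rows with no gene identifier (13.8%) were left out. Each gene was represented by its RefSeq row, or by its row with the highest mean. Genes whose mean reached 1 RPKM in one or both groups were tested with limma 3.58.1 in R 4.3.3 on log2(RPKM + 1), with an intensity trend and with genotype alone in the model. Tests are two-sided and p-values are adjusted by Benjamini-Hochberg over all tested genes. Fold changes on this scale understate the change of low genes. Shares were tested by exact permutation.

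The 10 genes and all lists were chosen with earlier results of these data known. The text names all 10 genes, Ucp1, from each list up to 4 called genes or the 1 with the smallest p, and the 3 genes most like Elovl3, Elovl6 and Scd1, leaving out predicted genes. The genes most like Scd1 over the 6 libraries are not reported here. Hsd17b12, Tecr, Cyb5r3, Cyb5a, Fasn, Acly, Srebf1, Mlxipl, Mlx, Acsl1, Scd3, Scd4, Elovl2, Fads6 and the cell type markers named (Cox8b, Cidea, Cox7a1, Prdm16, Hoxc8, Lep, Retn, Nnmt, Krt5 and Dsg1a) lie outside that rule and were named after their values were seen. Krt79 and Mc5r also lie outside that rule and were named after their values were seen. Of the 153 symbols on the lists, 151 were found. Same-numbered libraries did not deviate together (r = 0.09, 0.04 and -0.02). Libraries held identical values for at most 2 genes above 0. Alternatives changed scaling, filter, pseudocount, row, trend, block and libraries.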

Additional observations from a re-analysis of the deposited data

How the results depend on the processing

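The count of genes called among all tested was 887, and 454 with a minimum mean of 5 RPKM. It ranged from 455 to 849 when single libraries were left out, with 474 without knockout replicate 1 and 455 without knockout replicate 2. The count of called elongases and desaturases, 2, became 1 under median-of-ratios scaling, adipocyte marker scaling, no filter and a minimum mean of 5 RPKM, and ranged from 1 to 2 without single libraries. In each of these cases Elovl3 was the call lost. The count of called genes in the other lists, 3, became 5 under each scaling and ranged from 1 (without knockout replicate 1) to 6 (without wildtype replicate 2). The cause was not tested. With the replicate block, which the deviations did not back as a pairing, 775 genes, 2 of the 10 genes and 6 of the other lists' genes passed. The same replicate block leaves the differences in share unchanged by construction, at -17.5 percentage points for Elovl6, 16.2 for Elovl3, -0.145 for Scd1 and -8.64 for Fads2. It changed only the permutation p, to 0.25 for Elovl6 and Elovl3 and 0.5 for Scd1 and Fads2. For Elovl6 and Elovl3 this is the smallest p that the blocked permutation test allows here.

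The 4 shares kept their direction in all alternatives run, but not their size: the difference for Fads2 was -4.00 percentage points without wildtype replicate 1, and that for Scd1 was -0.021 without knockout replicate 2, -0.084 without wildtype replicate 1, -0.266 without knockout replicate 3 and -0.231 without wildtype replicate 2. Genes near 0 changed sign without passing. The log2 change of Elovl1, -0.005, was 0.039 with summed rows and -0.12 to 0.080 without single libraries. That of Scd2, 0.04, was -0.050 after median-of-ratios scaling, -0.018 after adipocyte marker scaling and -0.012 with the highest row, and -0.30 to 0.55 without single libraries. That of Fads2, -0.04, was 0.077 with the highest row, 0.020 with summed rows and -0.27 to 0.12 without single libraries. Depth limits Elovl4 and Elovl7.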

Other observations

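Further relatives of these enzymes were close to 0 in brown fat of both groups and were not tested, since they stayed below 1 RPKM on average. Scd3, a desaturase of sebaceous glands, stood at 0.378, 1.08 and 0.352 RPKM in knockout and at 0.353, 0.408 and 0.301 RPKM in wildtype libraries, with knockout replicate 2 the highest. Scd4 held 0.122 to 0.181 RPKM in knockout and 0.140 to 0.339 RPKM in wildtype libraries. Elovl2, which lengthens polyunsaturated chains after ELOVL5, did not exceed 0.116 RPKM in any library, and Fads6 did not exceed 0.358 RPKM.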
